A study of Mus musculus with 67 samples.

Results

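The genes described here were 10 components of the cellular response to low oxygen, chosen by name for their function out of 35539 genes in the tables: Hif1a and Epas1, Arnt, Vhl, Egln1, Egln2 and Egln3, Bnip3 and Bnip3l, and Vegfa. The choice of these genes, and of the gene lists used below, was made with earlier results of these data known. The 10 genes were followed in 60 RNA libraries of purified B cells and T cells from C57BL/6 mice. The cells were taken from spleen and lymph nodes with enrichment kits. The study asked how the inhibitory receptor Btla, which binds Hvem, shapes transcription in lymphocytes activated through their antigen receptors. Mice were either not immunized (naive) or carried experimental autoimmune encephalomyelitis (EAE), a model of multiple sclerosis induced by immunization with a myelin peptide. The labels name no altered allele and give neither the age of the mice nor the day after immunization. B cells and T cells of both states formed 4 sets, each with 5 arms of 3 libraries, which makes 20 groups. One arm was left unstimulated. The other 4 arms were cultured for 18 h with latex beads that carried the primary stimulus, anti-IgM/G for B cells or anti-CD3 for T cells, together with either control Ig or anti-Btla, each with or without soluble interferon beta (IFNb). The labels do not say whether the libraries of a group came from separate animals or cultures, and the study's general methods speak only of biological replicates, so part of the spread that the p-values rest on may be technical.

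Hypoxia-inducible factors are heterodimers of an alpha subunit, made by Hif1a or Epas1, and the beta subunit made by Arnt. When oxygen is present, the prolyl hydroxylases made by the Egln genes mark the alpha subunit, and the ubiquitin ligase that contains Vhl then sends it for degradation. The pathway is therefore controlled to a large part at the protein level, which RNA counts do not measure. In lymphocytes, Hif1a transcripts also rise after antigen receptor signaling at normal oxygen, and the factor is known for driving genes of glycolysis, Vegfa (a secreted growth factor for blood vessels), the hydroxylase gene Egln3, and the mitophagy receptors Bnip3 and Bnip3l, which mark mitochondria for removal.

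The B cell libraries held between 6.7 and 62.1 M (10 to the power of 6) counts, and the T cell libraries between 7.3 and 34.2 M. The anti-Btla libraries of EAE B cells were shallower (6.7 to 29.5 M) than their control Ig libraries (36.3 to 62.1 M). The 5 T cell markers summed to 1650 to 2450 CPM (counts scaled to a common library total) in T cell libraries and 2.95 to 7.26 CPM in B cell libraries, and the 5 B cell markers to 3030 to 5620 CPM in B and 5.92 to 144 CPM in T cell libraries. The cells labelled CD4+ differed between states in both CD8 genes, which summed to 501 to 1100 CPM in naive and 13.2 to 26.2 CPM in EAE T cells. Within naive T cells the CD8 sum was lower after activation, at 966, 926 and 1100 CPM in unstimulated libraries and 627, 597 and 752 CPM on control Ig beads, and its part in the changes of naive T cells was not tested. The 8 myeloid markers summed to 12.4 to 35.6 CPM in naive T cells and to 20 to 323 CPM in EAE T cells, with the highest sum in library 2 of all 5 EAE arms. In bulk samples such as these, fewer cells of a type and less RNA per cell cannot be told apart.

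The promoter sequences of 4 of the genes are shown because these genes rose in EAE T cells on activation and their first RefSeq window held a match to the core of the hypoxia response element, the short DNA motif bound by hypoxia-inducible factors. Each window holds 300 bases of GRCm38, from 250 bases before to 50 bases after the RefSeq start of transcription, written in the direction of the gene. Capitals mark ACGTG or GCGTG on either strand, so the other strand appears as CACGT or CACGC, and CACGTG counts once on each strand. The windows lie at chr12:73907617-73907916 on the plus strand for Hif1a, chr8:124949205-124949504 on the minus strand for Egln1, chr12:54203825-54204124 on the minus strand for Egln3 and chr7:138909457-138909756 on the minus strand for Bnip3.
Hif1a: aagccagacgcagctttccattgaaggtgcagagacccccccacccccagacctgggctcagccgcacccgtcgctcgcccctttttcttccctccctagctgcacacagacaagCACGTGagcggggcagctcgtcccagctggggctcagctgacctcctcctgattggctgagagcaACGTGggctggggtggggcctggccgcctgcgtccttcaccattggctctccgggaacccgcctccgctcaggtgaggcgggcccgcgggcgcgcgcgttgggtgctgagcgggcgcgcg
Egln1: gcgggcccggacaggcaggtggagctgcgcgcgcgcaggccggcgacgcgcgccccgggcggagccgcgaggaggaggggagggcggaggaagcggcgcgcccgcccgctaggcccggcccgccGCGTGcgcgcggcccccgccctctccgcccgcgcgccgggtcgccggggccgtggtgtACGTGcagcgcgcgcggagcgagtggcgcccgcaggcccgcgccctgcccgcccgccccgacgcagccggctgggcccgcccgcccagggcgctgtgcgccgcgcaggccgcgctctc
Egln3: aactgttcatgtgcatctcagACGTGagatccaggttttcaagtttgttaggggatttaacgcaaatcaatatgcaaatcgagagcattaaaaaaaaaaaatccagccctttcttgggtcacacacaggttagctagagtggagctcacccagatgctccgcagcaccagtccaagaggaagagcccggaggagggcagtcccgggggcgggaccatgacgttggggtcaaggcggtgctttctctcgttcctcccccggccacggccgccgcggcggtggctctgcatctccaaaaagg
Bnip3: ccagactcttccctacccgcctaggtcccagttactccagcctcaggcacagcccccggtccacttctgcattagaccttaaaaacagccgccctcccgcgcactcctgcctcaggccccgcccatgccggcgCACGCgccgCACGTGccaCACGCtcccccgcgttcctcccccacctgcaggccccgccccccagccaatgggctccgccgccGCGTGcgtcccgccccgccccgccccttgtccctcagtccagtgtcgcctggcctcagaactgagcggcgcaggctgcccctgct

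Bnip3 held 5 matches, Hif1a 3, Egln1 2 and Egln3 1. In Bnip3, 4 of the 5 matches stood close together, between 117 and 99 bases before the start. By comparison 43.8% of 32851 promoter windows of the same length held at least 1 match, 20.6% held 2 or more and 3.86% held 4 or more. The windows shown were picked for holding a match, and the others were not matched for base content. These shares are therefore a description and no test. Egln2, whose RNA passed no test of activation, held 6 matches in the first of its windows, and Vegfa held none in its first window and 2 in the other. Arnt held 1 match and Vhl none, and Epas1 and Bnip3l had no entry in the table. A match describes the letters in the window and is not evidence of binding. The Hif1a window lies inside the span that GENCODE gives the gene, chr12:73901375-73947530, because GENCODE also lists an earlier start.

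**Figure D1:**
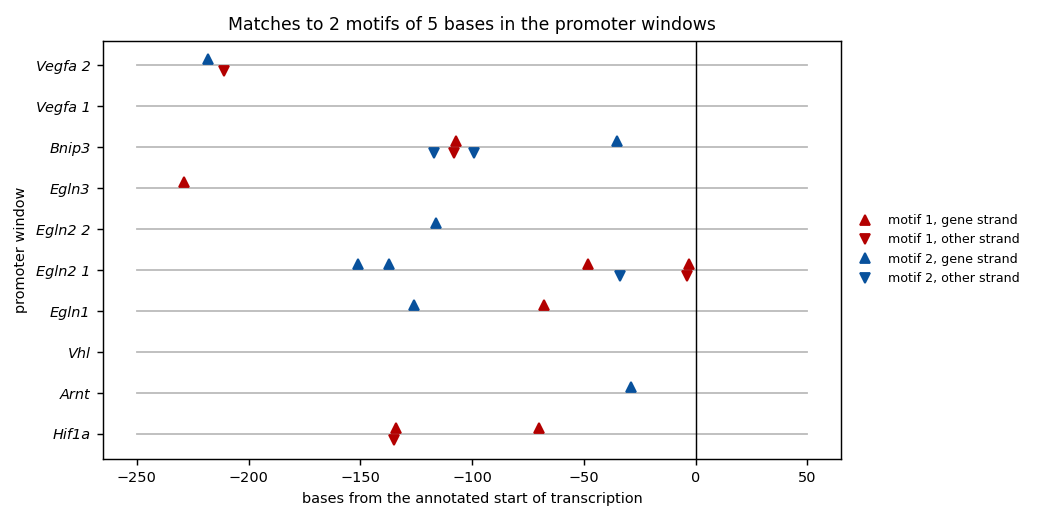
Positions of the motif matches in the promoter windows, in bases from the RefSeq start of transcription. Motif 1 is ACGTG and motif 2 is GCGTG, upward triangles lie on the strand of the gene, and Egln2 and Vegfa have 2 windows each. Bnip3 and the first Egln2 window hold the most matches, with 5 and 6.

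When levels were compared between genes per transcript length, as TPM, Bnip3l was the most abundant of the 10 genes and Hif1a came next in unstimulated B and T cells. Unstimulated naive B cells held 150.4 TPM of Bnip3l and 88.8 TPM of Hif1a, and unstimulated naive T cells 277 and 73.9 TPM. In EAE T cells on control Ig beads this order had turned. Hif1a stood at 902 TPM, Bnip3l at 399 TPM, Bnip3 at 132 TPM, Egln3 at 99.2 TPM and Egln1 at 82.8 TPM. The same hydroxylase gene Egln3 stood at 0.1002 TPM and Epas1 at 0.330 TPM in naive B cells on control Ig beads, the lowest of the 10 genes there. Levels of a given gene are given below in CPM, which compares libraries but not genes of different length.

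**Figure D2:**
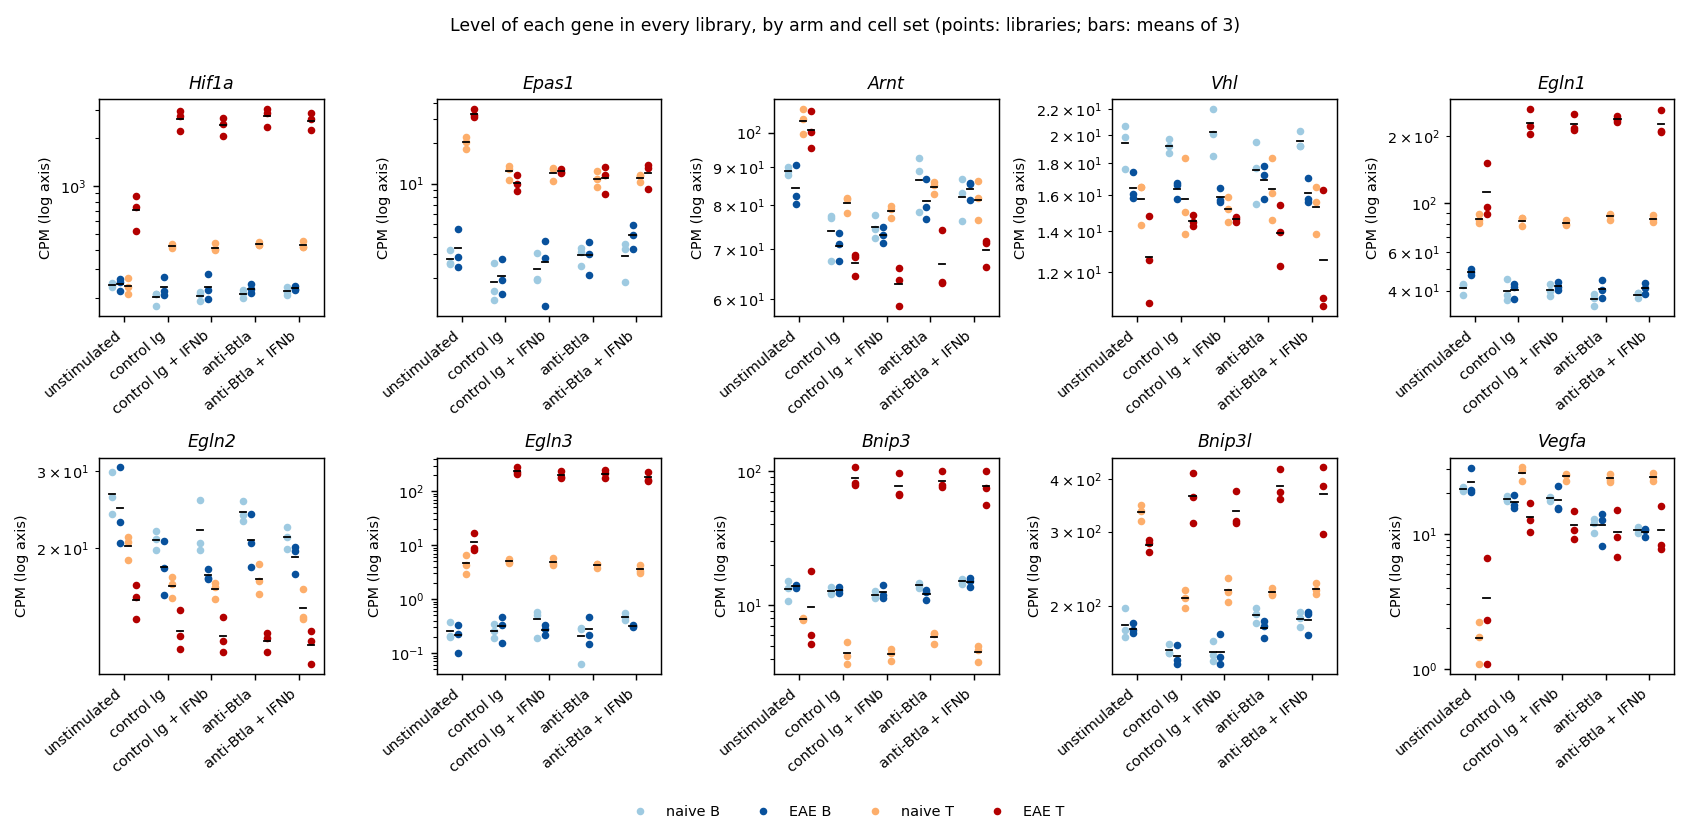
Level of each of the 10 genes in all 60 libraries, in CPM on log axes that differ between panels, by arm. Points are libraries, colored by set, and bars are means of 3. Hif1a, Egln1, Egln3 and Bnip3 in the 4 stimulated arms of EAE T cells lie above every other library, and Vegfa in stimulated naive T cells lies at 24.2 to 31.0 CPM.

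The first comparison asked how these genes changed with activation, taking control Ig beads against unstimulated cells. No culture time is given for the unstimulated cells. Antigen receptor stimulation therefore cannot be told apart from 18 h of culture and contact with beads in this contrast. In EAE T cells 6 of the 10 genes rose and 2 fell, and in naive T cells 2 rose and 4 fell. Over all genes tested in EAE T cells, 31.7% rose and 31.4% fell, and in naive T cells 27.1% rose and 23% fell, so that 63.1% and 50.1% were called. The count of 6 of 10 in naive T cells lay near that background. Hif1a and Vegfa rose in both sets, while Bnip3 and Bnip3l rose in EAE and fell in naive T cells, and Egln1 and Egln3 rose in EAE T cells and did not pass in naive T cells, with a difference between the sets that passed its own test. Log2 changes below are from the fit, with TMM scaling, and carry the standard error (SE).

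Hif1a, the oxygen-regulated alpha subunit, stood at 231.5, 264 and 212 CPM in the 3 unstimulated naive T libraries and at 412, 431 and 419.7 CPM on control Ig beads. The groups did not overlap, and the log2 change was 0.91 ± 0.05 (adjusted p = 1.26e-11). In EAE T cells, Hif1a went from 519, 865.5 and 741 CPM to 2213, 2943 and 2768 CPM, a log2 change of 1.96 ± 0.08 or 3.88-fold (adjusted p = 3.79e-11). Unstimulated EAE T cells thus already lay above every naive T library, stimulated ones included. The response in EAE exceeded that in naive T cells by 1.12 ± 0.09 on the log2 scale (adjusted p = 6.55e-10), in a fit of 30 libraries in which 37.8% of all genes differed between the states (20.8% higher, 17% lower). Over the 12 libraries of the 4 stimulated EAE T arms, Hif1a ranged from 2072 to 3027 CPM with a median of 2651 CPM, and the arms overlapped among themselves.

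Epas1, the other alpha subunit, moved against Hif1a in both T cell sets. Its level fell from 18.2, 22.1 and 20.4 CPM to 12.9, 13.5 and 10.7 CPM in naive T cells, a log2 change of -0.69 ± 0.11 (adjusted p = 3.87e-05). The fall was deeper in EAE T cells, from 35.7, 31.3 and 32.4 CPM to 8.85, 11.5 and 9.89 CPM, a log2 change of -1.67 ± 0.16 (adjusted p = 1.41e-07). Neither set overlapped between arms, and the difference between states was -0.92 ± 0.19 (adjusted p = 0.000391). After stimulation the 2 sets of T cells lay in the same range, 9.44 to 13.5 CPM in naive and 8.41 to 13.7 CPM in EAE T cells over 12 libraries each.

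The common partner Arnt fell in both T cell sets by less than these genes moved. It went from 104, 107 and 99.5 CPM to 81.6, 81.8 and 78.1 CPM in naive T cells (log2 change -0.30 ± 0.06, adjusted p = 0.000144) and from 95.5, 107 and 100.1 CPM to 68.2, 68.6 and 64.5 CPM in EAE T cells (-0.55 ± 0.07, adjusted p = 6.52e-06). Its change did not pass the test of the difference between states, at -0.17 ± 0.08 (adjusted p = 0.106). Vhl, the subunit that recognizes the hydroxylated alpha subunit, ranged over 10.6 to 22.01 CPM in all 60 libraries. Its log2 change was 0.04 ± 0.12 in naive T cells (adjusted p = 0.816) and 0.26 ± 0.15 in EAE T cells (adjusted p = 0.155), where it passed only without unstimulated library 1 (0.40, adjusted p = 0.0481).

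The 3 hydroxylase genes behaved unlike each other. Egln3 stood at 8.28, 17.2 and 8.94 CPM in unstimulated EAE T cells and at 208, 277 and 224 CPM on control Ig beads, which at 4.47 ± 0.13 on the log2 scale or 22.2-fold was the largest change of the 10 genes in that set (adjusted p = 2.1e-12). In naive T cells all 15 libraries held 2.91 to 6.49 CPM of Egln3, and the log2 change was 0.27 ± 0.24 (adjusted p = 0.379). The difference between states was 4.23 ± 0.28 (adjusted p = 1.3e-11). Egln1, regarded as the main oxygen sensor in most cells, went from 95.4, 150.9 and 89.0 CPM to 206, 265 and 222 CPM in EAE T cells, a log2 change of 1.12 ± 0.11 (adjusted p = 2.2e-07). Naive T cells held 78.5 to 88.5 CPM of Egln1 in every arm, with a log2 change of 0.04 ± 0.05 (adjusted p = 0.518) and a difference between states of 1.14 ± 0.13 (adjusted p = 9.26e-08). The third hydroxylase gene, Egln2, passed no test of activation. Its log2 change was -0.23 ± 0.10 in naive T cells (adjusted p = 0.0722) and -0.19 ± 0.12 in EAE T cells (adjusted p = 0.198), and in naive T cells it passed without unstimulated library 3 (adjusted p = 0.0368).

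Bnip3 and Bnip3l, the paired mitophagy receptors, changed in opposite directions in the 2 sets of T cells. Bnip3 fell in naive T cells from 7.92, 7.79 and 7.99 CPM to 5.35, 3.64 and 4.18 CPM (log2 change -0.82 ± 0.17, adjusted p = 0.00065). In EAE T cells it rose from 6.01, 18.0 and 5.15 CPM to 78.1, 106.5 and 80.8 CPM, or 10.6-fold (3.40 ± 0.22, adjusted p = 2.16e-09). The difference between states, 4.31 ± 0.30, was the largest of the 10 genes (adjusted p = 4.39e-11). Bnip3l, which started far higher, fell in naive T cells from 318, 347 and 335 CPM to 197, 209 and 218 CPM (-0.62 ± 0.04, adjusted p = 1.51e-09). It rose in EAE T cells from 286, 268 and 281.5 CPM to 315, 414 and 362 CPM (0.41 ± 0.10, adjusted p = 0.00146), so that the states differed by 1.10 ± 0.11 (adjusted p = 2.22e-08). None of these 4 pairs of groups overlapped.

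Vegfa was the member that responded more in naive than in EAE T cells. It went from 1.72, 2.24 and 1.09 CPM to 29.5, 31.0 and 24.5 CPM in naive T cells, or 18.7-fold (log2 change 4.22 ± 0.15, adjusted p = 8.51e-14). EAE T cells held 2.31, 6.63 and 1.10 CPM before and 12.5, 16.8 and 10.4 CPM after activation, or 4.91-fold (2.29 ± 0.29, adjusted p = 3.98e-06). The difference was -1.84 ± 0.37 (adjusted p = 0.000263). Across the 4 stimulated arms, naive T libraries lay at 24.2 to 31.0 CPM and EAE T libraries at 6.70 to 16.8 CPM with no overlap. The order of the 20 group means thus differed from that of Hif1a, where the 4 stimulated EAE T arms came first and the stimulated naive T arms followed the unstimulated EAE T cells.

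**Figure D3:**
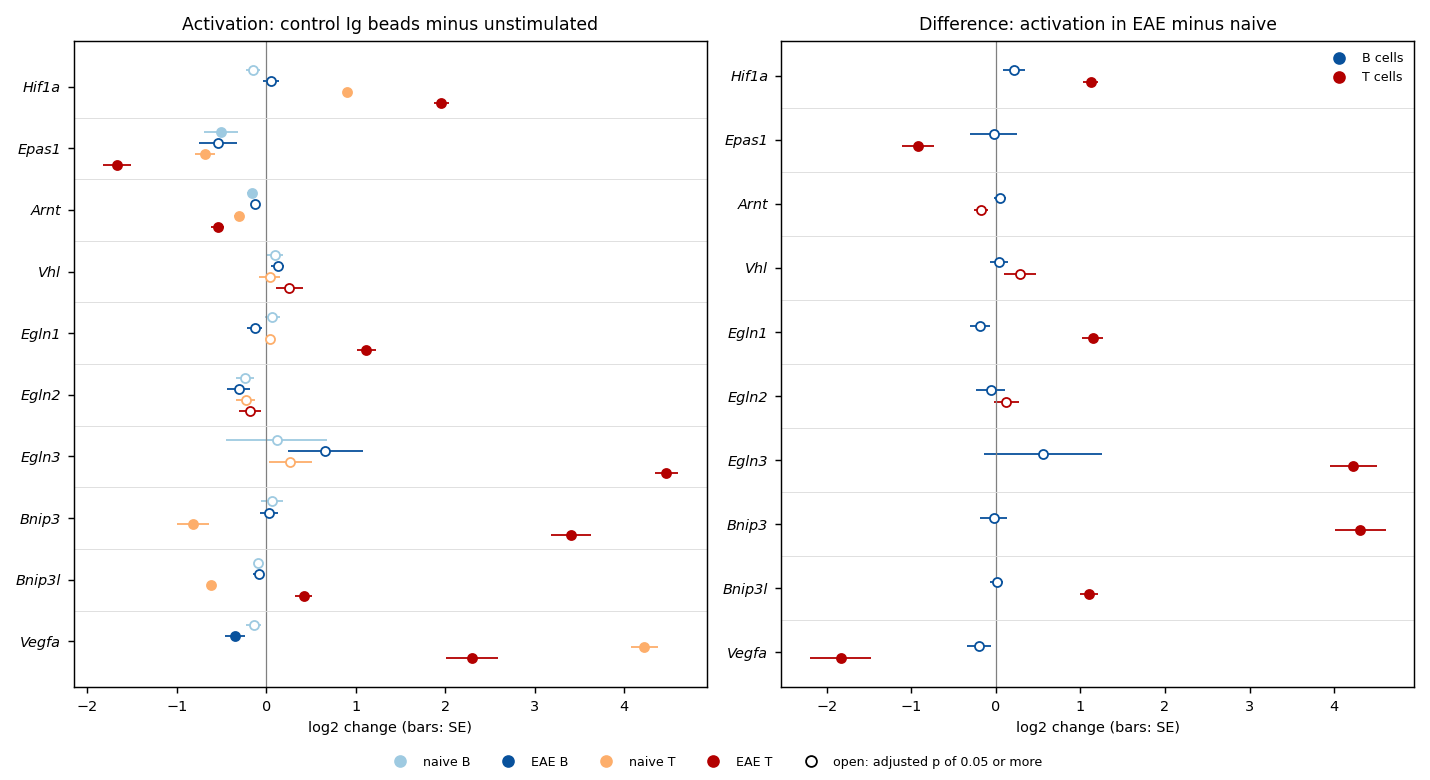
Left, log2 change with activation of each gene in the 4 sets, with its SE as a bar; filled points passed at an adjusted p below 0.05. Right, the activation change in EAE minus that in naive cells, for B and T cells. Bnip3 and Egln3 in T cells lie farthest to the right, at 4.31 and 4.23, and Vegfa in T cells lies at -1.84.

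Library 2 stood out among EAE T cells. It was the highest of 3 in all 5 arms for Hif1a, Egln1, Egln3, Bnip3 and Vegfa, and in 4 of 5 arms for Bnip3l and for Arnt, which fell with activation. The myeloid marker sum was also highest in library 2 of every arm, at 118, 323 and 151 CPM in the 3 unstimulated libraries and 21.6, 69.9 and 42.2 CPM on control Ig beads. This sum fell with activation while Hif1a, Egln3 and Bnip3 rose, and its part in the results was not tested. In naive T cells the highest myeloid sum was in library 1 of every arm, while Hif1a was highest in library 2 of every arm. Without the unstimulated EAE T library 2, the same number of genes, 8, was called on activation, and the log2 changes were larger for Egln3 (4.70), Bnip3 (3.93), Vegfa (2.92), Hif1a (2.06) and Egln1 (1.31).

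B cells showed little of this response. Only Epas1 and Arnt were called in naive B cells, both lower, and only Vegfa in EAE B cells, also lower. Of all genes tested, 22.7% were higher and 17.5% lower in naive B cells and 21.1% were higher and 18.8% lower in EAE B cells, or 40.2% and 39.8% in all. At an unadjusted p below 0.05 there were 3 members in naive B cells (the 2 called and Egln2), beside 7909 of 16618 genes. In EAE B cells there were 4 (Vegfa, Arnt, Egln2 and Epas1), beside 8136 of 16989. DESeq2 called 2 in each. Mean Egln2 was 26.6 CPM unstimulated and 20.9 CPM on control Ig beads in naive, and 24.7 and 18.1 CPM in EAE B cells. Hif1a lay between 177 and 281.5 CPM in all 30 B cell libraries, with a median of 221.5 CPM, and its log2 change was -0.15 ± 0.08 in naive (adjusted p = 0.13) and 0.05 ± 0.09 in EAE B cells (adjusted p = 0.672). The fall in naive B cells passed without control Ig library 1 (-0.23, adjusted p = 0.0382) and with no low-count filter (adjusted p = 0.0376). Bnip3 held 10.7 to 15.9 CPM, Egln1 34.1 to 49.98 CPM and Bnip3l 145 to 198 CPM over the B cell libraries. Egln3 was read by only 1 to 29 counts per B cell library, or 0.0625 to 0.580 CPM, so that a change in B cells was hardly detectable at this depth.

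The called changes in B cells were small. Epas1 fell from 2.52, 2.59 and 3.198 CPM to 1.38, 1.59 and 2.57 CPM in naive B cells, groups that overlapped (log2 change -0.51 ± 0.19, adjusted p = 0.0421). The call was lost without unstimulated library 1 or 2 or control Ig library 1 or 2 (adjusted p = 0.062 to 0.138) and without the replicate block (0.174). Arnt fell in naive B cells from 90.0, 88.9 and 87.8 CPM to 67.3, 76.8 and 77.4 CPM (-0.16 ± 0.05, adjusted p = 0.0192), a call lost without unstimulated library 1 (0.0618), control Ig library 1 (0.0757) or the block (0.0733). Vegfa fell in EAE B cells from 21.2, 30.7 and 20.4 CPM to 16.3, 19.3 and 15.5 CPM (-0.35 ± 0.12, adjusted p = 0.0261), a call lost without unstimulated library 2 or 3 or control Ig library 1 or 2 (0.08 to 0.117) and without the block (0.186). The activation responses of the 2 B cell states did not differ for any of the 10 genes by edgeR, at an unadjusted p below 0.05 or by DESeq2, in a fit in which 0.0808% of all genes were called.

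Between cell types, the activation response itself was tested in fits of 30 libraries per state. In naive cells the response of Vegfa was higher in T than in B cells by 4.41 ± 0.17 on the log2 scale and that of Hif1a by 1.10 ± 0.10. Those of Bnip3 and Bnip3l were lower by -0.84 ± 0.21 and -0.48 ± 0.07. These 4 genes were called beside 23.7% of all genes (14.7% higher, 9.03% lower). In EAE cells, 6 genes responded more in T cells and 2 (Epas1 and Arnt) less, beside 37.9% of all genes (19.7% higher, 18.2% lower). The differences there were 3.81 ± 0.43 for Egln3, 3.38 ± 0.25 for Bnip3, 2.66 ± 0.30 for Vegfa, 1.91 ± 0.13 for Hif1a and 1.25 ± 0.14 for Egln1. Bnip3l differed by 0.50 ± 0.12 (adjusted p = 0.00218), which was lost without the libraries numbered 2 (0.35, adjusted p = 0.0705). Cell type, the transcript set used for counting and the stimulating antibody cannot be told apart in these contrasts.

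The second comparison asked what anti-Btla on the beads added, taking anti-Btla against control Ig beads. The same control Ig libraries enter the activation contrast, so the 2 sets of changes are not independent. In naive B cells, 2 of the 10 genes were higher and 1 was lower with anti-Btla, and in EAE B cells 1 was lower. Of all genes, 13.1% were higher and 19.7% lower in naive B cells and 13.6% higher and 16.5% lower in EAE B cells, or 32.8% and 30.1% in all. At an unadjusted p below 0.05 there were 6 members in naive B cells (the 3 called and Arnt, Egln1 and Vhl) and 1 in EAE B cells, and DESeq2 called 4 and 1. Vegfa was the gene lower in both. It stood at 17.4, 17.6 and 19.03 CPM with control Ig and 10.2, 12.8 and 12.0 CPM with anti-Btla in naive B cells, a log2 change of -0.72 ± 0.09 (adjusted p = 1.15e-05). In EAE B cells the values were 16.3, 19.3 and 15.5 CPM and 12.5, 14.1 and 8.16 CPM (-0.64 ± 0.13, adjusted p = 0.0017). With IFNb in both arms the fall was -0.82 ± 0.09 in naive (adjusted p = 4.58e-06) and -0.81 ± 0.12 in EAE B cells (adjusted p = 0.000181). Taken over both states, the 12 libraries with anti-Btla held 8.16 to 14.1 CPM of Vegfa and the 12 with control Ig 15.3 to 22.6 CPM, without overlap, while the 6 unstimulated B cell libraries held 20.4 to 30.7 CPM. These 4 calls held in every alternative tried.

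Bnip3l was slightly higher with anti-Btla. Naive B cells held 155, 162 and 154 CPM with control Ig and 191.5, 198 and 182 CPM with anti-Btla, a log2 change of 0.19 ± 0.05 (adjusted p = 0.00907) that did not pass without the block (adjusted p = 0.0586). The change with IFNb in both arms was 0.21 ± 0.05 (adjusted p = 0.00462). In EAE B cells it was 0.14 ± 0.06 without IFNb (adjusted p = 0.126) and 0.19 ± 0.06 with it (adjusted p = 0.0409). That last call was lost with any of the 6 libraries left out (adjusted p = 0.0582 to 0.255), with RLE scaling (0.0511) and without the block (0.119).

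Epas1 was also higher with anti-Btla in naive B cells, at 1.38, 1.59 and 2.57 CPM with control Ig and 2.44, 3.12 and 3.32 CPM with anti-Btla (0.62 ± 0.19, adjusted p = 0.0195). The groups overlapped, and the call was lost without library 1 or 2 of either arm (adjusted p = 0.0527 to 0.0804) or the block (0.114). In EAE B cells the change was 0.48 ± 0.23 without IFNb (adjusted p = 0.142) and 0.71 ± 0.21 with IFNb (adjusted p = 0.0204). The latter did not pass without library 1 or 3 of either arm (0.0523 to 0.107) or the block (0.234). With IFNb in both arms 2 of the 10 genes were called in naive B cells and 3 in EAE B cells, beside 29.5% (12% higher, 17.6% lower) and 31% (13.6% higher, 17.4% lower) of all genes.

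Hif1a did not pass the test for anti-Btla in any set. In B cells its log2 change was -0.01 ± 0.08 in naive (adjusted p = 0.95) and -0.11 ± 0.09 in EAE cells (adjusted p = 0.4). In T cells no member was called by edgeR or DESeq2, with or without IFNb. By edgeR the share over all genes was 0% in naive and 0.0687% in EAE T cells (0.0481% higher, 0.0206% lower) without IFNb, and 0.0132% and 0% with it. In naive T cells without IFNb, DESeq2 called 36 genes in all, and edgeR with no low-count filter called 84 higher and 170 lower. At an unadjusted p below 0.05 there was 1 gene in naive T cells (Bnip3, 0.40 ± 0.18), none in EAE T cells, and with IFNb none in naive and 1 in EAE T cells (Arnt, 0.19 ± 0.07). Vegfa in EAE T cells changed by -0.37 ± 0.25 (adjusted p = 0.697). The anti-Btla changes of the 10 genes did not differ between naive and EAE cells in either cell type by edgeR, at an unadjusted p below 0.05 or by DESeq2, in fits that called 0% of all genes for B and 0.251% for T cells. Whether they differ between B and T cells was not tested.

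**Figure D4:**
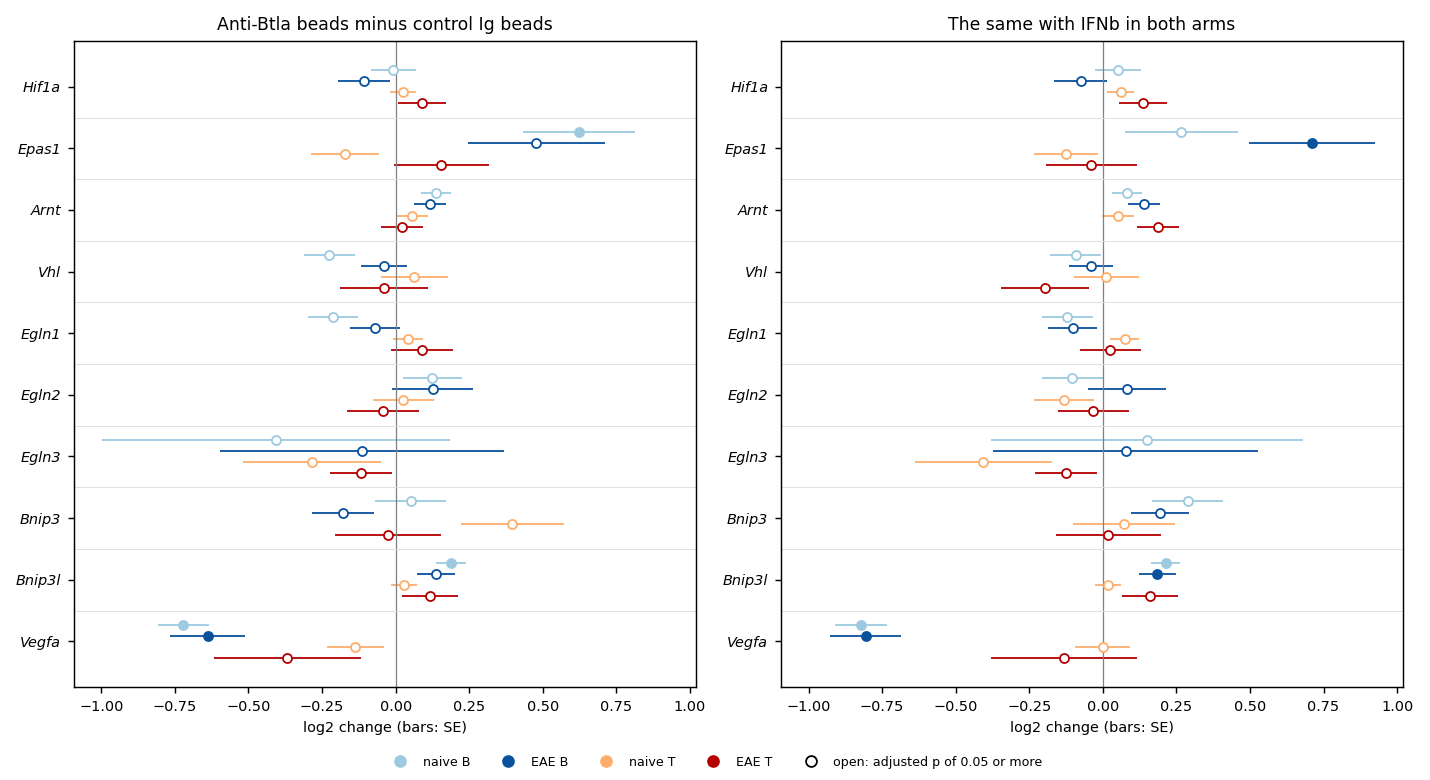
Log2 change of each gene with anti-Btla against control Ig beads in the 4 sets, without IFNb on the left and with IFNb in both arms on the right, with SE bars; filled points passed at an adjusted p below 0.05. Vegfa in both B cell sets lies between -0.82 and -0.64, while the T cell points are open throughout.

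IFNb alone, added to control Ig beads, called none of the 10 genes by edgeR or DESeq2 in any set. The only one at an unadjusted p below 0.05 was Epas1 in EAE T cells (0.37 ± 0.16). Over all genes the share was 0% in naive B, EAE B and naive T cells and 0.158% in EAE T cells.

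Before stimulation, EAE and naive T cells differed in 4 of the 10 genes, where 35.7% of all genes differed (18.6% higher and 17% lower in EAE). Hif1a was higher in EAE T cells by 1.67 ± 0.17 on the log2 scale (adjusted p = 0.000147) and Epas1 by 0.78 ± 0.11 (adjusted p = 0.000639), without overlap between the groups for either gene. Egln3 was higher by 1.42 ± 0.36 (adjusted p = 0.0139), a call lost without naive library 2 (0.0611) or 3 (0.0606). Bnip3l was lower by -0.18 ± 0.06 (adjusted p = 0.041), a call lost without any of 5 of the 6 libraries (adjusted p = 0.0618 to 0.14), which left 2 genes called without naive library 2 or 3. Vegfa and Bnip3 did not pass, at 1.05 ± 0.64 and 0.34 ± 0.43. Without EAE library 2 their changes were 0.02 and -0.46. The CD8 and myeloid marker sums given above differ between these same groups, and their part in the results was not tested. In B cells none of 9 genes tested differed between EAE and naive by edgeR or DESeq2, and 1 (Egln1, 0.26 ± 0.09) had an unadjusted p below 0.05, beside 0.0492% of all genes (0.0246% in each direction).

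Unstimulated B and T cells differed in 9 of the 10 genes in naive and 8 in EAE mice, beside 63.6% (32.9% higher and 30.7% lower in B cells) and 54% (27% each way) of all genes. Cell type, the transcript set used for counting and the sequencing cannot be told apart in this contrast. The largest difference in the direction of B cells was Vegfa, higher by 3.76 ± 0.20 on the log2 scale in naive and 2.93 ± 0.53 in EAE mice. T cells held more of Egln3, by which B cells were lower by -4.13 ± 0.41 and -5.71 ± 0.48, and of Epas1, at -2.88 ± 0.15 and -3.40 ± 0.22. Egln1 was lower in B cells by -1.05 ± 0.08 and -1.28 ± 0.20 and Bnip3l by -0.90 ± 0.08 and -0.73 ± 0.09. Hif1a did not pass in naive mice, at 0.01 ± 0.08 (adjusted p = 0.88), and was lower in B cells by -1.61 ± 0.20 in EAE mice (adjusted p = 0.000132). Smaller differences were those of Egln2, higher in B cells by 0.40 ± 0.11 and 0.62 ± 0.15, and Arnt, lower by -0.23 ± 0.06 and -0.33 ± 0.10. Bnip3 and Vhl were higher in naive B cells only by the test of that state, by 0.72 ± 0.16 and 0.30 ± 0.11, and no test compared the states. The Vhl call was lost without B cell library 2 or 3 or T cell library 1 or 3 (adjusted p = 0.0578 to 0.147). In EAE mice Bnip3 passed without T cell library 2 (1.31, adjusted p = 0.000442), and the Arnt call was lost without B cell library 1 or 3 or T cell library 2 (adjusted p = 0.0543 to 0.0817).

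The genes that hypoxia-inducible factors are known to drive were followed as 2 lists. Both lists were chosen with earlier results of these data known, so their shares beside all genes are a description and no independent test. Of 20 genes of glucose uptake, glycolysis and lactate handling, 18 rose and 1 fell in EAE T cells on activation, with a median log2 change of 2.58 against -0.07 over all genes. Among them Pgam1 rose by 3.04 ± 0.13 and Ldha, which makes lactate, by 3.05 ± 0.13, while Pdk1, which holds back pyruvate oxidation, fell (log2 change -0.996 ± 0.095). In naive T cells 12 rose and 4 fell with a median of 0.48, led by the hexokinase gene Hk2 at 3.82 ± 0.14. Over all genes 31.7% rose and 31.4% fell in EAE T cells, and 27.1% and 23% in naive T cells. The change was higher in EAE than in naive T cells for 17 of the 20 genes and lower for none, with a median difference of 1.86. Of all genes, 20.8% were higher and 17% lower by that test. In B cells, 12 of the 20 rose and 3 fell in each state, with medians of 0.60 in naive and 0.52 in EAE cells. The shares over all genes are those given with the members above (22.7% higher and 17.5% lower in naive, 21.1% and 18.8% in EAE B cells). Ldha (1.34 ± 0.05 and 1.43 ± 0.06) and Pgk1 (1.38 ± 0.07 and 1.46 ± 0.09) rose in both, and the glucose transporter gene Slc2a3 fell (-0.61 ± 0.08 and -0.72 ± 0.08).

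With anti-Btla, 11 of these 20 genes were lower and 3 higher in naive B cells, and 10 lower and 4 higher in EAE B cells, with medians of -0.39 and -0.36. Over all genes 19.7% were lower and 13.1% higher in naive, and 16.5% and 13.6% in EAE B cells, so the count of higher genes lay near the background. Ldha was lower by -1.01 ± 0.05 and -1.08 ± 0.06 and Pgam1 by -0.82 ± 0.06 and -0.83 ± 0.07, while Pdk1 was higher by 0.43 ± 0.07 and 0.52 ± 0.09. None of the 20 was called in T cells. These changes in B cells stood beside a Hif1a level that did not pass in either state.

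The second list held 22 further genes commonly induced by hypoxia. Of 20 tested in EAE T cells, 15 rose and 2 fell on activation, with a median of 1.20, and in naive T cells 10 of 20 rose and 4 fell. Over all genes 31.7% rose and 31.4% fell in EAE and 27.1% and 23% in naive T cells. Ak4, a mitochondrial adenylate kinase gene, rose by 5.08 ± 0.29 in EAE T cells, and Tfrc, the transferrin receptor gene, by 3.36 ± 0.13, while the heme oxygenase gene Hmox1 fell (-2.72 ± 0.13). Bhlhe40, a transcription factor gene, led in naive T cells at 3.85 ± 0.08 and like Vegfa responded less in EAE T cells, by -2.92 (adjusted p = 2.99e-11). Among 21 tested in B cells, 6 rose and 2 fell in naive mice, against 7 and 3 in EAE mice, where 40.2% and 39.8% of all genes were called. With anti-Btla 19.7% of all genes were lower and 13.1% higher in naive, and 16.5% and 13.6% in EAE B cells. Of the list, 8 were lower and 2 higher in naive, and 9 lower and 2 higher in EAE B cells. Tfrc was among the lower ones (-0.72 ± 0.06 and -0.93 ± 0.11), and Kdm3a, a histone demethylase gene, among the higher ones (0.31 ± 0.05 and 0.28 ± 0.07).

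**Figure D5:**
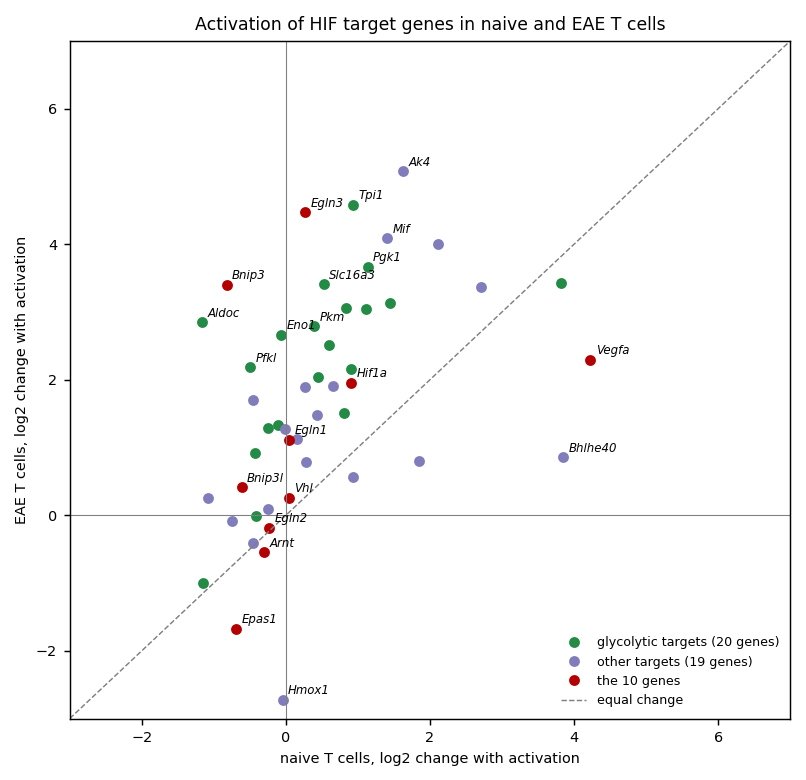
Log2 change on activation in naive T cells (horizontal axis) and EAE T cells (vertical axis) of the target genes tested in both sets and of the 10 genes. The dashed line marks equal change, and names mark the 10 genes and the targets farthest from it. Most targets lie above the line, with Egln3 and Bnip3 among them, and Vegfa and Bhlhe40 lie below it.

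Partners and regulators of the factors were called in shares that lay near those over all genes in T cells. Of 16 such genes 6 rose and 5 fell in EAE T cells, beside 31.7% and 31.4% of all genes, and 5 rose and 5 fell in naive T cells, beside 27.1% and 23%. Among 15 tested in B cells, 6 rose and 4 fell in each state, beside 22.7% and 17.5% of all genes in naive and 21.1% and 18.8% in EAE mice. Genes of the Vhl ligase complex were among those that rose in EAE T cells, with Elob at 1.37 ± 0.10 and Cul2 at 1.04 ± 0.10, next to Rack1 at 1.33 ± 0.08. The coactivator genes Crebbp (-0.80 ± 0.07) and Ep300 (-0.64 ± 0.07) fell there. Hif3a, another alpha subunit gene, fell in naive and EAE B cells on activation (-1.09 ± 0.18 and -1.19 ± 0.16) and was higher with anti-Btla (0.66 ± 0.18 and 0.70 ± 0.18). With anti-Btla, 7 of 15 regulators were lower and 3 higher in naive B cells (19.7% and 13.1% of all genes), and 7 lower and 2 higher in EAE B cells (16.5% and 13.6%).

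Other mitophagy genes did not share the large change of Bnip3. In EAE T cells 4 of 13 tested rose and 5 fell, with a median of -0.05 against -0.07 over all genes, where 31.7% rose and 31.4% fell. Phb2, which acts in the mitochondrial inner membrane, rose by 1.74 ± 0.12, and the kinase gene Pink1 fell (-0.92 ± 0.12). In naive T cells 3 of 14 rose and 2 fell (27.1% and 23% of all genes). Of 14 tested in B cells, 5 were higher and 2 lower on activation in naive mice (22.7% and 17.5% of all genes), and 6 higher and 3 lower in EAE mice (21.1% and 18.8%). With anti-Btla, 1 of 14 was higher in each B cell state (13.1% and 13.6% of all genes), with 5 lower in naive and 6 in EAE cells (19.7% and 16.5%), among them the adaptor gene Sqstm1 (-0.64 ± 0.07 and -0.75 ± 0.09).

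Of the other ligands and receptors of the vascular growth factor family, Nrp1, a co-receptor gene, rose in activated naive and EAE B cells (2.85 ± 0.28 and 2.99 ± 0.23) as the only one of 5 tested. It rose in naive T cells (0.47 ± 0.09) and fell in EAE T cells (-1.37 ± 0.13). In all, 3 of 5 rose and 1 fell in naive T cells, beside 27.1% and 23% of all genes. In EAE T cells 1 of 6 rose and 2 fell, beside 31.7% and 31.4%. In B cells the shares over all genes that rose were 22.7% in naive and 21.1% in EAE mice. With anti-Btla, 1 of 5 was lower in naive B cells (Nrp1, -1.07 ± 0.24) and none of 5 in EAE B cells. Over all genes, 19.7% and 16.5% were lower.

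The genes most like each member were sought across the 60 libraries on log2(CPM + 0.5), after the mean of each cell type was taken out, among 7881 genes with at least 10 CPM on average in both cell types. The correlations describe libraries that share arms and sets, so they carry no test. Hif1a was most like Hipk2 (r = 0.968), Brca1 (0.966) and the glucose transporter gene Slc2a1 (0.959), with 0.985, 0.977 and 0.973 within T cells but -0.388, 0.365 and 0.251 within B cells. Egln3 was most like Bnip3 (0.975) and Bnip3 most like the phosphofructokinase gene Pfkl (0.976). These likenesses too were seen in T cells (0.984 and 0.987). Within B cells the values were -0.17 and -0.013, and the few Egln3 counts there limit the first of them. Egln1 was most like Slc2a1 (0.971), with 0.98 within T and 0.671 within B cells. Vegfa stood apart from these, closest to the amino acid transporter gene Slc7a5 (0.933) and Mthfd2 (0.926), an enzyme of one-carbon metabolism, in T cells (0.946 and 0.941) and in B cells (0.807 and 0.79). Bnip3l was closest to Tspan13 (0.95), Arnt to Rcsd1 (0.941), Epas1 to Ttn (0.848), Egln2 to Lfng (0.86) and Vhl to Nsmce4a (0.669).

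Salmon divides counts among transcripts, so the share of each gene given to a transcript was also compared, with 6 control Ig libraries (3 naive and 3 EAE) against 6 unstimulated ones per cell type. The counts of Hif1a were divided nearly evenly between Hif1a-201 and Hif1a-202, at 46.6% ± 2.9 and 47.9% ± 2.8 (SD, n = 6) in B cells and 46.1% ± 3.7 and 49.2% ± 4.0 in T cells on control Ig beads. None of 36 comparisons passed after Benjamini-Hochberg adjustment. The smallest p was that of Vegfa-205, a transcript with a retained intron, at 14.95% ± 4.07 on control Ig beads and 2.79% ± 3.29 in unstimulated T cells (exact permutation test, two-sided, p = 0.00433, adjusted 0.156). Unstimulated T cells held few Vegfa counts, which limits that share.

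Positions in GRCm38 bear on how the genes were counted. Hif1a shares at most 148 bases of exon with Gm49321 on the same strand, a gene with a mean of 45.2 counts against 12755 for Hif1a. Egln2 overlaps Cyp2t4 on the opposite strand by 11 bases. Larger overlaps on the opposite strand were those of Bnip3 with Gm45507, by 342 bases, and of Hif1a with Gm15283, by 191 bases. Neither of these antisense genes was in the tables, so their counts are not known. Without the strand setting of the counting, reads of such pairs cannot be told apart with certainty. Adding the counts of Gm49321 to Hif1a changed no call of the 10 genes. No gene on the opposite strand was added, so the part of those pairs was not tested.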

How the data were processed

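RNA from 60 libraries of mouse B and T cells was sequenced on an Illumina HiSeq instrument. The authors quantified reads with Salmon and deposited 67 tables of estimated counts per transcript. The deposited tables also give TPM, used here only to order genes within a library. Build GRCm38 is given in the submitters' processing notes, which name Salmon and DESeq2 without versions. Which library kit, strand setting and transcript set were used is not stated in the sources read here.

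Estimated counts were summed to genes with GENCODE M21 and rounded, and the 2 runs of 7 libraries were summed. Transcripts without a gene held 0.186 to 0.708% of a library's counts and were left out. CPM is a count scaled to a common library total. Tests were edgeR (4.0.16, R 4.3.3) quasi-likelihood F-tests with TMM scaling, filterByExpr at a minimum count of 10, and all 15 libraries of a set with the replicate number as a block, since the study's general statistical methods include the replicate in linear models. Comparisons between unstimulated groups used 6 libraries without a block, and differences between sets 30. Calls required an adjusted p (Benjamini-Hochberg, over all genes tested) below 0.05. The SE was the log2 change divided by the square root of F. Intervals of counting error would understate the error, as reads are not independent molecules. The fits were tested on simulated data. Alternatives were DESeq2 1.42.0, RLE scaling, no low-count filter, the block removed or added, and first runs only. The counts of Gm49321 were also added to Hif1a, and each library was left out in turn.

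The 10 genes, their target and regulator lists and the marker lists were chosen with earlier results of these data known. The text names the 10 genes everywhere, from each list up to 3 called genes per direction with the smallest adjusted p, transcripts with at least 10% of a gene's counts, and the genes most correlated with each member. Promoter sequences are from RefSeq on GRCm38.p6, where 8 of the 10 genes had an entry. No authors' comparison columns were present or used.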

Additional observations from a re-analysis of the deposited data

Results flagged for a closer look

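The activation response differed between groups by a test of the difference itself for several of the 10 genes, and each such difference is given here as a log2 value with no explanation. Between states in T cells (EAE minus naive), Bnip3 differed by 4.31, Egln3 by 4.23, Egln1 by 1.14, Hif1a by 1.12 and Bnip3l by 1.10, while Epas1 differed by -0.92 and Vegfa by -1.84. Between cell types in naive mice (T minus B), Vegfa differed by 4.41, Hif1a by 1.10, Bnip3l by -0.48 and Bnip3 by -0.84. Between cell types in EAE mice, Egln3 differed by 3.81, Bnip3 by 3.38, Vegfa by 2.66, Hif1a by 1.91, Egln1 by 1.25, Bnip3l by 0.50, Arnt by -0.42 and Epas1 by -1.13. The CD8 marker sum (501 to 1100 CPM in naive and 13.2 to 26.2 CPM in EAE T cells) and the myeloid sum differ between the T cell sets as well, and their part was not tested. Within a group, 3 libraries are too few to test for a single library that stands apart.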

How the results depend on the processing

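Of 2819 values of the 10 genes under alternatives, 2739 kept their side of the threshold, 56 lost a call and 24 gained one. No value called in the main fit or the alternative reversed its direction. Changes of direction among values called in neither fit were not counted. Of 66 calls, 53 held in every alternative. Without the replicate block, the count of genes called fell from 2 to 0 for activation in naive B, from 1 to 0 for activation in EAE B, from 3 to 1 for anti-Btla in naive B and from 3 to 1 for anti-Btla with IFNb in EAE B cells. Over all genes the calls also fell without the block in EAE B cells, from 3577 higher and 3186 lower to 2524 and 1880 for activation, from 2315 and 2807 to 1167 and 1608 for anti-Btla, and from 2308 and 2957 to 1085 and 1720 for anti-Btla with IFNb. For activation in EAE B cells the members' count was 2 with DESeq2 and 3 with no low-count filter, and DESeq2 gave 4 against 3 for anti-Btla in naive B and for anti-Btla with IFNb in EAE B cells. The cause of these shifts was not tested. With libraries left out in turn, counts ranged from 1 to 2 for activation in naive B, 0 to 2 in EAE B, 6 to 7 in naive T and 8 to 9 in EAE T cells, 2 to 4 for anti-Btla in naive B, 1 to 2 for anti-Btla with IFNb in EAE B, 2 to 4 for EAE against naive T, 8 to 9 and 7 to 8 for B against T cells in naive and EAE mice, and 7 to 8 for the difference between cell types in EAE. Where that leaves 2 libraries in an arm of a set, the spread is shared with the other arms. The comparisons of unstimulated groups have no other arms, so their spread then rests on 2 libraries against 3.

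The labels number the libraries but do not say that a number marks a shared animal. Deviations of same-numbered libraries from their group means correlated at medians of 0.117, 0.23, 0.121 and 0.183 for naive B, EAE B, naive T and finally EAE T cells, while libraries with different numbers had medians of -0.058, -0.154, -0.054 and -0.099. A correlation over 0.1 was found for 19, 27, 20 and 27 of the 30 same-numbered pairs, and every library was closest to its own number except 1 in naive B cells. Deviations from a group mean cancel out within the group, so the negative medians follow from the positive ones and are no separate evidence. The same-number values are only a hint that the numbers pair the libraries. Since some pairs lay below 0.1 and no label names a shared animal, the pairing was not established, and the block was kept because the study's general methods use it. Depth limited Egln3 in B cells, and the unequal depth of the EAE B anti-Btla and control Ig libraries cannot be told apart from the arm.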
